A study of Fukomys damarensis and Heterocephalus glaber and Cavia porcellus with 28 samples.

Results

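The urea cycle and its supply of ammonia are described here in liver, with heart as the contrast tissue, in 2 African mole-rats (naked and Damaraland) and 2 outgroup rodents (guinea pig and mouse). The gene set held 10 genes named by symbol, Cps1, Otc, Ass1, Asl, Arg1, Nags, Slc25a13, Slc25a15, Glud1 and Gls2, without use of measured values. Of these, 9 matched a mouse Ensembl identifier among the 13928 rows of each table, and Nags (ENSMUSG00000048217) was not analysed here. Total RNA depleted of ribosomal RNA had been sequenced from 28 samples of 18 animals, 10 of which gave both tissues. There were 4 livers and 3 hearts of naked mole-rats, 5 and 5 of Damaraland mole-rats, 3 and 3 of guinea pigs, and 2 and 3 of mice. The labels gave ages of 13 to 17 months for naked mole-rats, 36 to 48 months for Damaraland mole-rats, 2.3 months for guinea pigs and 2 months for mice, so age and species cannot be told apart. All animals were male except the Damaraland liver replicate 4, and 1 Damaraland animal had a different age label in its heart and its liver. The labels gave no strain, colony or treatment.

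Ammonia set free from amino acids is toxic, and mammals convert it to urea mainly in hepatocytes around the portal vein. In mitochondria, CPS1 joins ammonia and bicarbonate, and OTC passes the product to ornithine to make citrulline. In the cytosol, ASS1 joins citrulline with aspartate, ASL splits the product into arginine and fumarate, and ARG1 releases urea and restores ornithine. The carrier encoded by Slc25a15 (ORC1) exchanges ornithine and citrulline across the inner mitochondrial membrane, and the one encoded by Slc25a13 (citrin) exports the aspartate used by ASS1. Glutamate dehydrogenase (Glud1) and liver-type glutaminase (Gls2) set ammonia free in mitochondria from glutamate and glutamine. Heart is not a site of the whole cycle.

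Values are the deposited variance-stabilised values, a log2-like scale on which 0 reads stand at 4.2893 in liver and 5.3645 in heart. A difference of 1 between abundant genes is close to 2-fold, but rare genes are compressed: a 2-fold change from 10 reads moved a heart value by 0.254, and one from 1000 reads by 0.933. Reads were recovered from the values and gave totals of 11220505 to 21467939 per liver library and 4089633 to 26985779 per heart library. A difference was called at a limma adjusted p under 0.05, with Benjamini-Hochberg adjustment over all genes tested, and a size of at least 1. Errors are SD over animals, or SE for a fitted difference. The values hold no correction for gene length or annotation quality in each species, and these cannot be told apart from the species. Levels are therefore compared between species for the same gene, and not between genes. Marker genes fitted the tissue labels, with 8 hepatocyte markers summing to 85500 to 187000 RPM (reads per 1000000 recovered reads) in liver and 6 cardiomyocyte markers to 44900 to 142000 in heart. In bulk tissue, fewer cells of a type and less RNA per cell cannot be told apart.

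In liver, different genes stood out in different species. Naked mole-rats had the lowest Slc25a15 and Slc25a13, the mitochondrial carriers, and the lowest Asl. They also had the highest Arg1. Damaraland mole-rats had the lowest Cps1 and Ass1, while neither of their carriers was called against the mouse. Gls2 was lower in the mole-rats than in the outgroups on average. Without mouse replicate 2 that difference was -0.907, which fell under the size threshold. Of the 9 genes, 1 was called higher (Arg1) and 2 lower (Slc25a13 and Gls2) in the average contrast, which compared the average of both mole-rats with that of the guinea pig and mouse. Of all 10887 liver genes tested, 28.1% were called in that contrast, 15.1% higher and 13% lower, so 3 of 9 was close to the background. The median difference of the 9 genes was -0.53, against 0.02 for all genes.

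**Figure D1:**
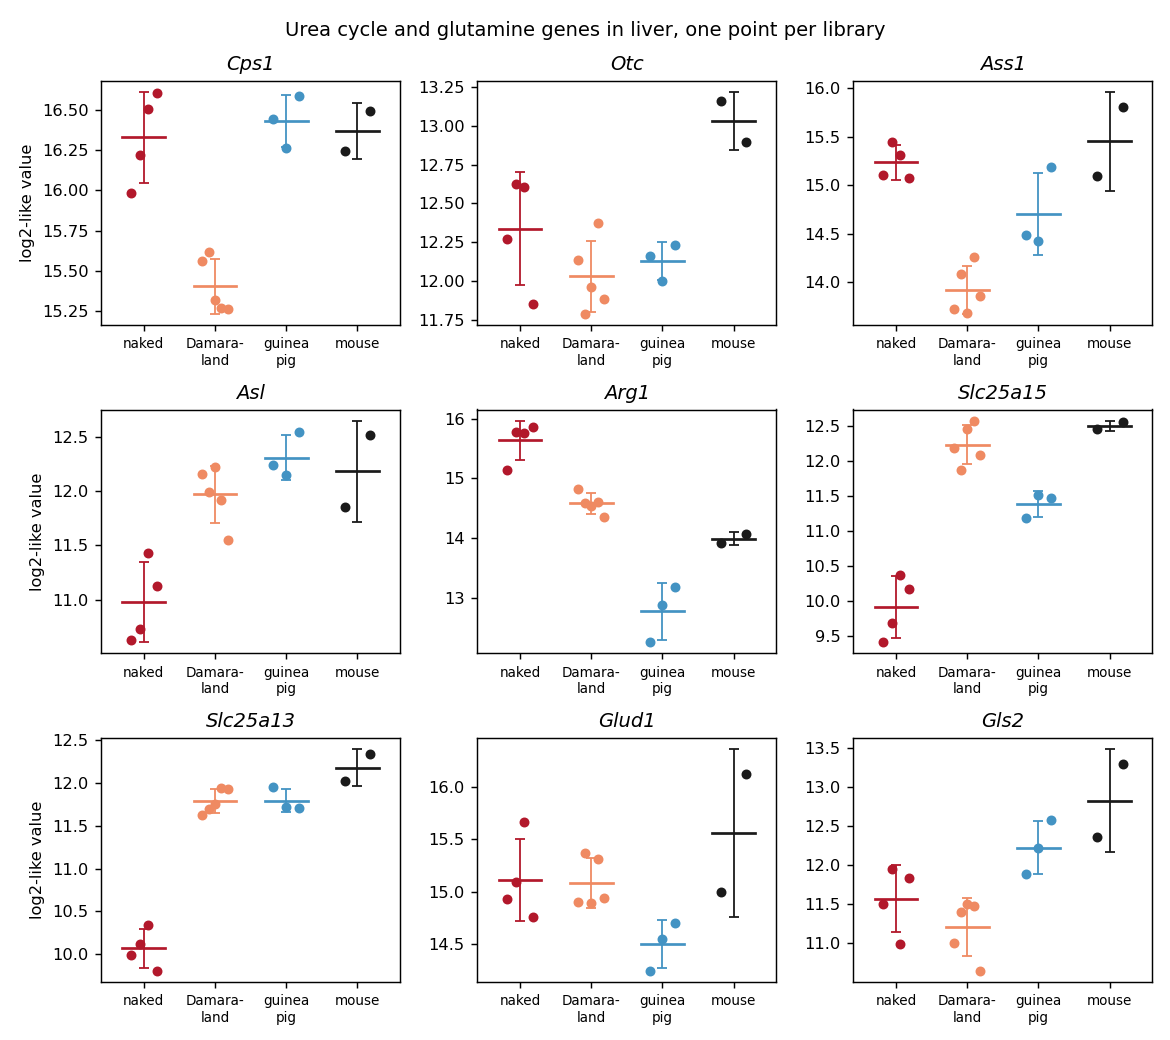
Liver values of the 9 genes on the log2-like scale (vertical axes), with a point for each library, a bar at the species mean and error bars of 1 SD. Naked mole-rat points stand apart at the low end for Slc25a13, between 9.81 and 10.34, and at the high end for Arg1, between 15.14 and 15.87.

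The first step, Cps1 (ENSMUSG00000025991), was lowest in Damaraland liver. Its values were 15.56, 15.62, 15.32, 15.27 and 15.26 in the Damaraland animals, against 15.99, 16.22, 16.51 and 16.60 in naked mole-rats. Guinea pigs had 16.44, 16.26 and 16.59, and mice 16.25 and 16.49. No Damaraland library overlapped any library of the other species, while those of the other species overlapped one another. The Damaraland minus guinea pig difference was -1.02 (SE 0.21, limma adjusted p = 4.43e-04). The difference from the mouse was -0.96 (adjusted p = 0.00239) and that of naked minus Damaraland was 0.92 (adjusted p = 5.06e-04), both under the size threshold. The guinea pig call was at the edge of that threshold: it was lost without Damaraland liver replicate 4, without Damaraland replicate 5 or without guinea pig replicate 3, where the difference was -0.946.

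Otc (ENSMUSG00000031173), which makes citrulline, was highest in the mouse. Mouse liver had 13.16 and 12.90, and the other 12 libraries ran from 11.79 in a Damaraland animal to 12.63 in a naked mole-rat. Species means were 12.34 ± 0.36 (SD, n = 4) in naked mole-rats, 12.03 ± 0.23 (n = 5) in Damaraland mole-rats and 12.13 ± 0.12 (n = 3) in guinea pigs, and these overlapped. Damaraland minus mouse was called, at -1.0 (SE 0.22, limma adjusted p = 6.97e-04), and naked minus mouse, at -0.69 (adjusted p = 0.0128), was not. The Damaraland call lay on the size threshold and was lost under several settings, down to -0.869 without mouse liver replicate 1.

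Ass1 (ENSMUSG00000076441), the step that brings in aspartate, was also lowest in Damaraland liver, with values of 13.72, 14.08, 13.68, 14.26 and 13.86. Naked mole-rats had 15.11, 15.45, 15.31 and 15.07, guinea pigs 14.49, 14.42 and 15.18, and mice 15.09 and 15.81. All 5 Damaraland livers lay below all livers of the other species. For naked minus Damaraland the difference was 1.31 (SE 0.21, limma adjusted p = 3.38e-05) and Damaraland minus mouse -1.53 (SE 0.26, adjusted p = 7.82e-05), both called. Damaraland minus guinea pig was -0.78 (adjusted p = 0.00698), under the size threshold. In RPM, Ass1 averaged 1150 ± 135 in Damaraland liver and 2430 ± 160 in naked mole-rat liver.

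Asl (ENSMUSG00000025533) had the opposite order in the mole-rats. Naked mole-rat livers had 10.62, 10.73, 11.42 and 11.12, below every library of the other species. Damaraland livers had 12.16, 11.99, 12.22, 11.92 and 11.55, guinea pigs 12.24, 12.14 and 12.54, and mice 11.85 and 12.51. Naked minus guinea pig was -1.33 (SE 0.22, limma adjusted p = 5.2e-05) and naked minus mouse -1.21 (SE 0.25, adjusted p = 4.86e-04). Naked minus Damaraland was -0.99 (adjusted p = 2.56e-04), just inside the size threshold and therefore not called, although it passed under quantile normalisation, at -1.06. Without mouse liver replicate 2 the naked minus mouse difference was -0.877 and was not called.

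The ratio of these consecutive enzymes within a library does not depend on how libraries are scaled. Per 100 Ass1 reads, naked mole-rat liver had 3.72 to 6.69 Asl reads and Damaraland liver 19.5 to 36.2. Guinea pig liver had 15.9 to 20.9 and mouse liver 10.1 to 10.5. The ranges of the naked mole-rat and the mouse each lay apart from those of the other species.

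Arg1 (ENSMUSG00000019987), which releases urea, was the cycle enzyme with the widest range of species means, from 12.77 ± 0.47 (SD, n = 3) in guinea pigs to 15.64 ± 0.33 (n = 4) in naked mole-rats. Naked mole-rats had 15.14, 15.78, 15.76 and 15.87, and Damaraland mole-rats 14.83, 14.59, 14.54, 14.60 and 14.35. Guinea pigs had 12.25, 12.87 and 13.18, and mice 13.92 and 14.06. The 4 species followed each other without overlap, and Arg1 was the sole gene of the 9 for which every mole-rat liver lay above every outgroup liver, as was so for 8.74% of all liver genes tested. Mole-rats minus outgroups averaged 1.73 (SE 0.17, limma adjusted p = 1.35e-07). Naked mole-rat liver was called higher than that of each other species, by 1.06 (SE 0.21) over the Damaraland mole-rat, 2.87 (SE 0.24) over the guinea pig and 1.65 (SE 0.27) over the mouse. Damaraland minus mouse, at 0.59 (adjusted p = 0.0543), did not pass. The naked minus Damaraland call was lost under other scalings, as at 0.743 with quantile normalisation. The guinea pig minus mouse difference of -1.22 was called, but not without guinea pig replicate 1, at -0.964.

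Per 100 Cps1 reads, Arg1 had 55.7 to 73.8 reads in naked mole-rat liver and 49.1 to 62.8 in Damaraland liver. In guinea pig liver it had 5.43 to 9.52 and in mouse liver 18.5 to 19.8. On this measure, which needs no scaling between libraries, the mole-rats overlapped each other and both stood above the outgroups. The ratio also moves with Cps1, which was lowest in Damaraland liver, and Arg1 itself was not called for Damaraland minus mouse.

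Slc25a15 (ENSMUSG00000031482), the ornithine and citrulline carrier, was lowest in naked mole-rat liver, at 9.41, 9.70, 10.37 and 10.18. Damaraland livers had 12.18, 11.88, 12.46, 12.57 and 12.08, guinea pigs 11.18, 11.51 and 11.47, and mice 12.45 and 12.55. Naked mole-rats lay below all others, guinea pigs between, and Damaraland mole-rats overlapped mice. The naked minus Damaraland difference was -2.32 (SE 0.19, limma adjusted p = 1.18e-08), naked minus guinea pig -1.47 (SE 0.22, adjusted p = 1.48e-05) and naked minus mouse -2.59 (SE 0.25, adjusted p = 9.54e-08). Damaraland minus mouse was -0.27 (adjusted p = 0.338). In RPM the carrier averaged 60.5 ± 19.1 in naked mole-rats, 359 ± 64.8 in Damaraland mole-rats, 203 ± 43.2 in guinea pigs and 435 ± 20.1 in mice. Because the mole-rats differed from each other this strongly, the average contrast, at -0.87, describes neither species.

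Per 100 reads of Otc, the enzyme that makes the citrulline it carries, Slc25a15 had 12.6 to 30.6 reads in naked mole-rat liver and 103 to 141 in Damaraland liver. The guinea pig had 50.2 to 71.2 and the mouse 61 to 78.7. The naked mole-rat lay below and the Damaraland mole-rat above both outgroups on this ratio, with no overlap. Against the mouse, the Damaraland ratio moved through Otc, which was lower by the difference given above, and not through a higher Slc25a15.

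Slc25a13 (ENSMUSG00000015112), citrin, was lowest in naked mole-rats too, at 9.99, 10.12, 10.34 and 9.81. Damaraland livers had 11.62, 11.70, 11.76, 11.94 and 11.93, guinea pigs 11.95, 11.72 and 11.70, and mice 12.03 and 12.33. All naked mole-rat libraries lay more than 1 below all others, and Damaraland and guinea pig libraries overlapped. Between the mole-rats, naked minus Damaraland was -1.72 (SE 0.14, limma adjusted p = 9.52e-09), and naked minus mouse was -2.11 (SE 0.18, adjusted p = 2.42e-08). Naked minus guinea pig was of like size (SE 0.16, adjusted p = 5.37e-08). These 3 calls, and the 3 of Slc25a15 in naked mole-rats, held under every other scaling, filter and variance model tried and without each library in turn. The test against a difference of 1 lost naked minus guinea pig for Slc25a15 and kept the other 5. The average contrast of -1.06 was called, but not without mouse liver replicate 2, at -0.981, just under the size threshold.

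Slc25a13, Slc25a15 and Arg1 were called in naked mole-rat liver against each of the other species, as were 10.3% of all liver genes in either direction. Over the 6 pairs of species, 22 of 54 comparisons of the 9 genes were called, or 40.7%. By pair, 4 of 9 were called for naked minus Damaraland (34.2% of all liver genes), 4 for naked minus guinea pig (37.8%) and 5 for naked minus mouse (41.2%). The count was 3 each for Damaraland minus guinea pig (36.2%), Damaraland minus mouse (39.2%) and guinea pig minus mouse (37.2%), so the genes were called about as often as liver genes at large. None of the 9 was called with one sign in all 4 contrasts that pair a mole-rat with an outgroup, a pattern shown by 6.29% of liver genes. The limma count was 0 with voom on recovered reads as well. At an unadjusted p under 0.05 with no size threshold, 2 genes (Arg1 and Gls2) had it.

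Glud1 (ENSMUSG00000021794), which deaminates glutamate, differed little between the mole-rats. Naked mole-rats had 14.93, 15.09, 15.66 and 14.75, Damaraland mole-rats 14.90, 15.37, 14.89, 15.31 and 14.94, guinea pigs 14.25, 14.55 and 14.70, and mice 15.00 and 16.13. The mole-rats overlapped each other and the mouse, and guinea pigs were lowest. The average contrast was 0.07 (SE 0.20, limma adjusted p = 0.788) and turned negative under other scalings, to -0.137 with quantile normalisation. Guinea pig minus mouse was called at -1.06 (adjusted p = 0.0111) and rested on mouse replicate 2: without it the difference was -0.496 (adjusted p = 0.274).

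Gls2 (ENSMUSG00000044005), the glutaminase that feeds ammonia to CPS1, was lower in mole-rats than in the mouse, and less clearly so against the guinea pig. Naked mole-rats had 11.51, 11.95, 10.99 and 11.84, and Damaraland mole-rats 11.00, 11.41, 11.50, 11.48 and 10.65. Guinea pigs had 11.89, 12.22 and 12.58, and mice 12.36 and 13.30. The Damaraland livers lay below both outgroups, while a naked mole-rat liver overlapped the guinea pigs. Naked minus guinea pig was -0.66 (limma adjusted p = 0.0462) and not called. Damaraland minus guinea pig was called at -1.02 (adjusted p = 0.00272), but not with a replicate block (-0.949), without Damaraland replicate 1 (-0.970) or 5 (-0.882), or without guinea pig replicate 3 (-0.848). Mole-rats minus outgroups averaged -1.14 (SE 0.21, limma adjusted p = 1.05e-04), Damaraland minus mouse -1.62 (SE 0.30, adjusted p = 1.72e-04) and naked minus mouse -1.26 (SE 0.31, adjusted p = 0.00208). Without mouse liver replicate 2, the average contrast was -0.907 and naked minus mouse -0.793, both under the size threshold, so neither call held. Per 100 Glud1 reads, Gls2 had 3.86 to 13.1 in naked mole-rats, 4.98 to 9.44 in Damaraland mole-rats, 19.4 to 22.8 in guinea pigs and 14 to 16 in mice.

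Mouse liver had 2 animals, and replicate 2 lay above replicate 1 for 8 of the 9 genes, all but Otc. The median gap was 0.31 and the widest 1.13 (Glud1), against a median of 0 over all genes. With mouse replicate 2 left out, where the lone mouse is assumed to vary like the other groups, the count of genes called in the liver average contrast went from 3 to 1, Arg1. The female Damaraland liver lay within the range of the 4 males for 5 of the 9 genes and outside it for Otc, Ass1, Slc25a13 and Slc25a15.

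In heart, every mole-rat library lay above every outgroup library for Asl and Ass1 and below for Slc25a13. Such separation was found for 7.57% of all heart genes tested upwards and 7.59% downwards. Slc25a15 was lowest in naked mole-rats, as in liver. Cps1 and Arg1 were highest in naked mole-rat hearts, where hepatocyte markers were also highest. In the average contrast 4 of the 7 genes tested were called higher (Cps1, Ass1, Asl and Arg1) and 1 lower (Slc25a13), against 23.4% of all 10667 heart genes in either direction, 10.8% higher and 12.6% lower. The median of the 7 was 1.48, against -0.01 over all genes. Arg1 passed the filter on low values only through the mole-rats, since its means in guinea pig and mouse hearts lay under it, so it had to differ and neither the count nor the median supports more than a description. Otc and Gls2 were below the filter on low values in heart and have no test. The tissues were transformed separately, so their differences are set side by side and were not tested against each other. The libraries of a pair of species lay apart on opposite sides in the 2 tissues in 5 of 54 comparisons of the 9 genes, against 9.03% of comparisons of all genes tested in liver.

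**Figure D2:**
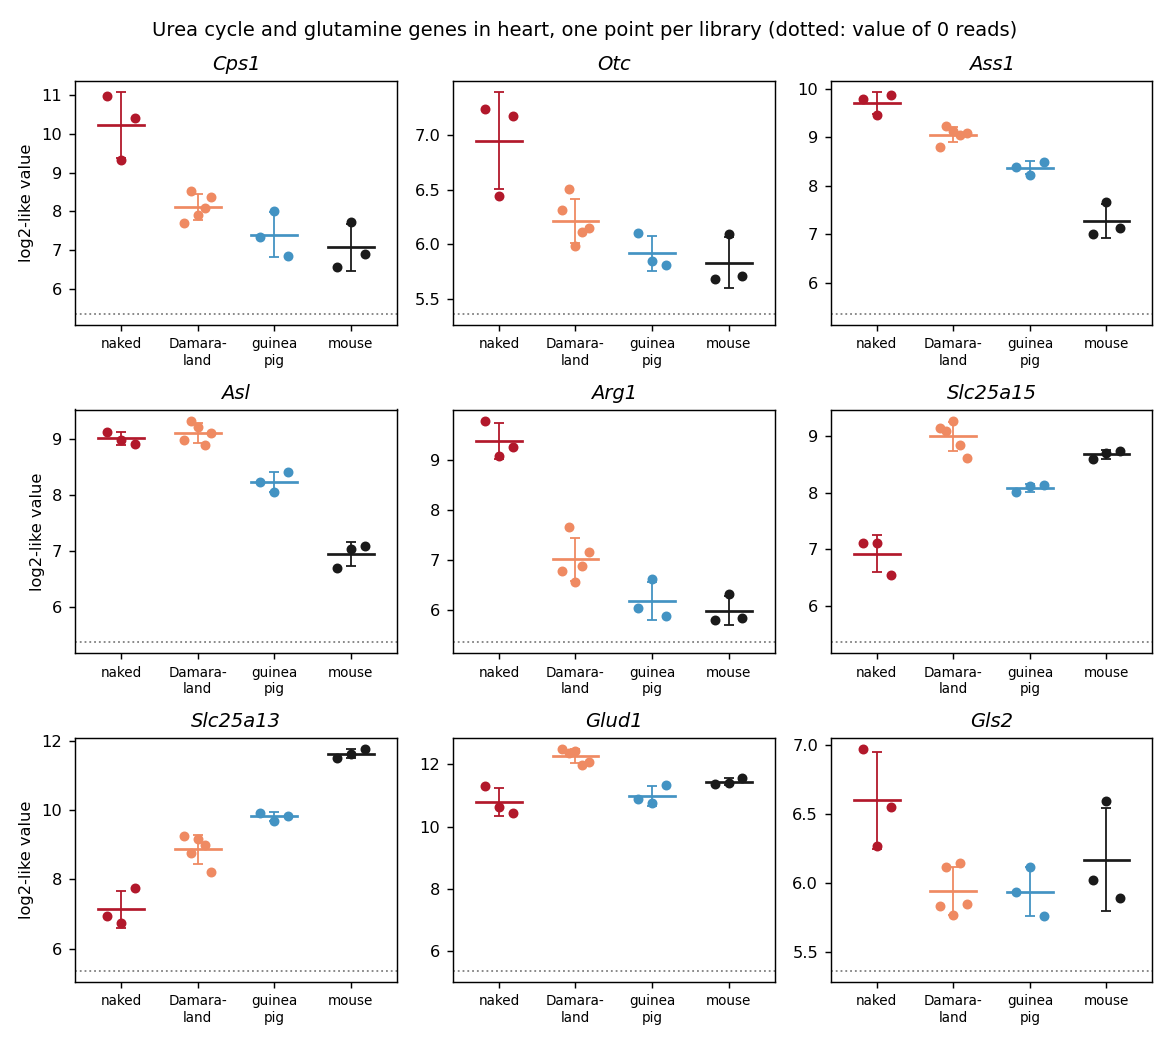
Heart values of the 9 genes on the log2-like scale (vertical axes), with a point for each library, a bar at the species mean and error bars of 1 SD; the dotted line is the value of 0 reads. Asl in the 8 mole-rat hearts lies between 8.90 and 9.33, above all 6 outgroup hearts, and Slc25a13 steps up from naked mole-rat to mouse.

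Asl in heart had 9.14, 9.0 and 8.91 in naked mole-rats and 8.98, 9.33, 9.23, 8.90 and 9.11 in Damaraland mole-rats. Guinea pigs had 8.24, 8.06 and 8.41, and mice 6.70, 7.04 and 7.08. The mole-rats overlapped each other and lay above the guinea pigs, which lay above the mice. The average contrast was 1.48 (SE 0.11, limma adjusted p = 7.04e-09), naked minus mouse 2.07 (SE 0.17) and Damaraland minus mouse 2.17 (SE 0.15, adjusted p = 2.1e-09). The differences from the guinea pig were 0.78 (adjusted p = 6.91e-04) and 0.88 (adjusted p = 8.29e-05), under the size threshold. In liver the same gene was lower in naked mole-rats than in both outgroups.

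Ass1 in heart had 9.79, 9.45 and 9.87 in naked mole-rats, 8.80, 9.24, 9.12, 9.04 and 9.08 in Damaraland mole-rats, 8.39, 8.22 and 8.50 in guinea pigs and 7.01, 7.67 and 7.12 in mice. The species followed each other in that order without overlap. Mole-rats minus outgroups averaged 1.56 (SE 0.13, limma adjusted p = 1.53e-08), and Damaraland minus mouse was 1.79 (SE 0.17, adjusted p = 9.46e-08), where in liver it was -1.53. Guinea pig minus mouse was called at 1.10 (SE 0.19), but not without mouse heart replicate 1, at 0.978. Species means of the hepatocyte marker Alb, given below, had the same order. Alb libraries overlapped between Damaraland mole-rats and guinea pigs and between guinea pigs and mice, where Ass1 libraries did not. A link between Ass1 and Alb was not tested.

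Slc25a13 had the widest range of the genes in heart. Naked mole-rats had 6.94, 6.74 and 7.75, Damaraland mole-rats 9.25, 8.76, 9.18, 9.0 and 8.21, guinea pigs 9.93, 9.69 and 9.85, and mice 11.51, 11.63 and 11.77. No species overlapped another, and every mole-rat heart lay below every outgroup heart. Naked minus mouse was -4.50 (SE 0.26, limma adjusted p = 3.56e-10), Damaraland minus mouse -2.76 (SE 0.24, adjusted p = 3.09e-08) and naked minus Damaraland -1.74 (SE 0.24, adjusted p = 8.59e-06). Damaraland minus guinea pig was -0.95 (adjusted p = 0.00243), which kept the gene out of the set called in all 4 contrasts. It was called at -1.04 without Damaraland heart replicate 1, at -1.02 without Damaraland replicate 3, at -1.01 without guinea pig replicate 2 and on the 4 scales made from recovered reads.

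Slc25a15 in heart had 7.12, 7.12 and 6.55 in naked mole-rats, against 9.13, 9.09, 9.27, 8.85 and 8.62 in Damaraland mole-rats. Guinea pigs had 8.01, 8.11 and 8.14, and mice 8.60, 8.70 and 8.74. The naked mole-rat hearts lay below all others, as their livers did. Damaraland minus mouse was 0.31 in heart and -0.27 in liver, so the full order was not the same. Naked minus Damaraland was -2.06 (SE 0.17, limma adjusted p = 2.39e-08) and naked minus mouse -1.75 (SE 0.19, adjusted p = 5.31e-07). Naked minus guinea pig, at -1.16 (adjusted p = 5.92e-05), was -0.969 and not called without naked mole-rat heart replicate 3, the library with the fewest reads, where Slc25a15 had 8.

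Glud1 in heart was highest in Damaraland mole-rats, at 12.49, 12.38, 12.41, 11.98 and 12.07. Naked mole-rats had 11.29, 10.64 and 10.42, guinea pigs 10.87, 10.74 and 11.33, and mice 11.36, 11.42 and 11.57. Damaraland hearts lay above all others, and naked mole-rats overlapped guinea pigs. The naked minus Damaraland difference was -1.48 (SE 0.20, limma adjusted p = 8.25e-06) and Damaraland minus guinea pig 1.28 (SE 0.20, adjusted p = 3.54e-05). Damaraland minus mouse, at 0.82 (adjusted p = 0.00185), was under the size threshold, but was called at 1.31 with RPM under either pseudocount and with voom.

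Cps1 in heart had 10.98, 9.31 and 10.40 in naked mole-rats, 7.70, 8.51, 7.91, 8.09 and 8.37 in Damaraland mole-rats, 7.33, 8.01 and 6.86 in guinea pigs and 6.57, 7.73 and 6.91 in mice. Naked mole-rat hearts lay above all others, and the remaining species overlapped. The average contrast was 1.94 (SE 0.26, limma adjusted p = 4.94e-06). Between the mole-rats, naked minus Damaraland was 2.12 (SE 0.34, adjusted p = 5.19e-05) and naked minus mouse 3.16 (SE 0.38, adjusted p = 1.99e-06). Damaraland minus mouse, at 1.04 (adjusted p = 0.0132), was 0.792 (adjusted p = 0.0874) without mouse heart replicate 1 and 0.963 (adjusted p = 0.0514) without mouse replicate 3.

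Arg1 in heart had 9.78, 9.07 and 9.26 in naked mole-rats, 6.79, 7.67, 6.55, 6.89 and 7.17 in Damaraland mole-rats, 6.04, 6.62 and 5.89 in guinea pigs and 5.81, 6.32 and 5.86 in mice. Naked mole-rats again lay above all others. Mole-rats minus outgroups averaged 2.10 (SE 0.18, limma adjusted p = 3.43e-08) and naked minus Damaraland 2.36 (SE 0.24, adjusted p = 3.72e-07). Arg1 passed the filter on low values only through the mole-rats, since its guinea pig and mouse means lay under it. Its differences and their p-values therefore support no more than a description. Damaraland minus mouse was called at 1.02 (SE 0.24, adjusted p = 0.00148). It was 0.927 without mouse heart replicate 1, 0.949 without mouse replicate 3, 0.856 without Damaraland replicate 2 and 0.98 without Damaraland replicate 5, and not called in any of these. Damaraland minus guinea pig, at 0.83 (adjusted p = 0.00713), was not called, but reached 1.38 with RPM and a pseudocount of 1 and 2.13 with voom, and was called there. Mouse hearts had 6 to 24 Arg1 reads.

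Otc in heart rested on few reads, 94, 37 and 20 in naked mole-rats, 8 to 31 in Damaraland mole-rats, 5 to 17 in guinea pigs and 3 to 14 in mice. Gls2 had 67, 26 and 8 reads in naked mole-rats and 3 to 41 in the other hearts. At this depth no order of the 4 species is given for them.

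Hepatocyte markers other than Apoa1 moved with Cps1 and Arg1 in heart. The 8 markers measured, of 10 listed, summed to 921 to 2190 RPM in naked mole-rat hearts and 273 to 553 in Damaraland hearts. They summed to 296 to 466 in guinea pig hearts, of which Apoa1 gave 231 to 288, and to 21.2 to 73.6 in mouse hearts. Apoa1 had another order, with 17 to 28.2 RPM in naked mole-rat hearts and 122 to 137 in Damaraland hearts. In guinea pigs it averaged 260 RPM in heart and 8.98 in liver, so it did not mark hepatocytes there. The sums are therefore not a measure of hepatocyte RNA alone. None of the 8 markers was at 0 in all libraries of a species. Alb, the serum albumin gene, had 592 to 1700 RPM in naked mole-rat hearts, 102 to 343 in Damaraland, 24.4 to 132 in guinea pig and 11.8 to 46.2 in mouse hearts. In the heart average contrast 7 of the 8 markers were called higher, with a median of 2.24, against 10.8% of all heart genes tested. Some markers had few reads in outgroup hearts, as Ambp with 14 to 43 in mice and Serpinc1 with 12 to 42 in guinea pigs. This count therefore supports no more than a description. With these markers and mitochondrial genes left out of the library totals, the Ass1 average contrast was 1.95 and was called. That setting also used log RPM in place of the deposited values. It kept any Ass1 reads from hepatocytes, so it cannot show how much of the Ass1 level they gave. The part of hepatocyte RNA in the heart values was not tested for any gene of the set.

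For the 10 animals with both tissues, the heart level of each gene was set as a percentage of the liver level in RPM, a description over separately sequenced libraries. Cps1 in heart was 0.901% and 2.08% of liver in the naked mole-rats, 0.328% to 0.565% in 4 Damaraland mole-rats, 0.054% to 0.228% in 3 guinea pigs and 0.109% in the mouse. Divided by the percentage for Alb in the same animal, Cps1 was at 0.823 to 4.06 times, Arg1 at 0.812 to 5.4 times, Otc at 0.801 to 3.28 times and Gls2 at 0.75 to 2.97 times. Otc and Gls2 rested on the few heart reads given above, and Arg1 in guinea pig hearts on 7 to 43 reads, so these spans are imprecise. Asl was at 10 to 170 times the albumin fraction, Glud1 at 3.33 to 326 times, Slc25a13 at 3.06 to 884 times and Slc25a15 at 3.79 to 253 times. Ass1 was at 7.66 to 30.9 times in Damaraland mole-rats and guinea pigs, 1.41 and 3.89 times in the naked mole-rats and 2.1 times in the mouse. In the naked mole-rats and the mouse, Ass1 thus lay within the span of Cps1, Arg1, Otc and Gls2. Slc25a13 (3.06 times), Glud1 (3.33) and Slc25a15 (3.79) also lay within it in the naked mole-rat with Cps1 at 2.08%. In the other naked mole-rat they were above it, at 9.09, 10.8 and 23.7 times.

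**Figure D3:**
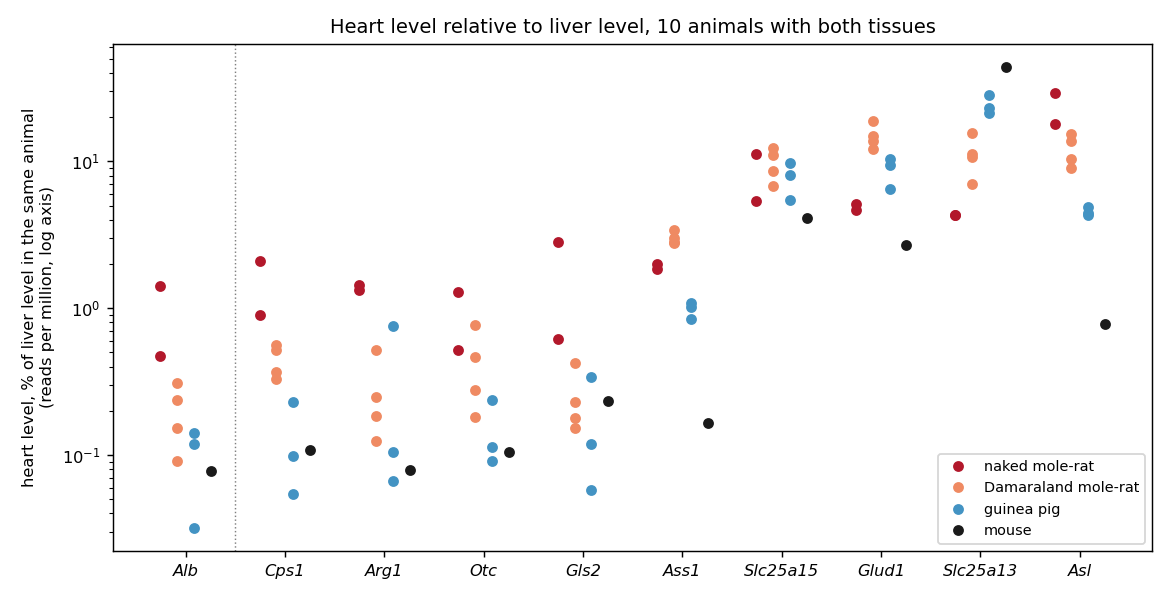
Heart level as a percentage of the liver level of the same animal in RPM (vertical log axis) for albumin (Alb) and the 9 genes (horizontal axis), with a point for each of 10 animals in 4 species. Cps1, Arg1, Otc and Gls2 lie at 0.75 to 5.4 times the albumin fraction, and Slc25a13 runs from 4.3% in a naked mole-rat to 43.9% in the mouse. Otc, Gls2 and outgroup Arg1 rest on few heart reads.

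The tissue balance of Asl and Slc25a13 ran in opposite orders over the species. Asl in heart was 17.9% and 29.4% of liver in the naked mole-rats, 9.01% to 15.4% in Damaraland mole-rats, 4.33% to 4.91% in guinea pigs and 0.781% in the mouse. Slc25a13 in heart was 4.3% and 4.31% in the naked mole-rats, 6.96% to 15.5% in Damaraland mole-rats, 21.3% to 28.2% in guinea pigs and 43.9% in the mouse. In neither case did the species overlap, with 1 mouse and 2 naked mole-rats behind the ends.

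Over the 6 pairs of species in heart, 25 of 42 comparisons of the 7 genes were called, or 59.5%. The counts given here include Arg1, which passed the filter on low values only through the mole-rats and so had to differ. They support no more than a description. Of 7 genes, 5 were called for naked minus Damaraland (29.4% of all heart genes), 5 for naked minus guinea pig (33%) and 6 for naked minus mouse (38.2%). For Damaraland minus guinea pig 1 was called (29.7%), for Damaraland minus mouse 5 (34.9%) and for guinea pig minus mouse 3 (32.1%). Of these 7, 4 (Slc25a13, Slc25a15, Arg1 and Cps1) were called in naked mole-rat heart against each other species, as were 9.02% of all heart genes. None was called in all 4 contrasts that pair a mole-rat with an outgroup, a pattern of 4.68% of heart genes. With limma and no size threshold 4 genes passed (Ass1, Asl, Arg1 and Slc25a13), the same number as at an unadjusted p under 0.05, and 2 were called with voom on recovered reads (Arg1 and Slc25a13).

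**Figure D4:**
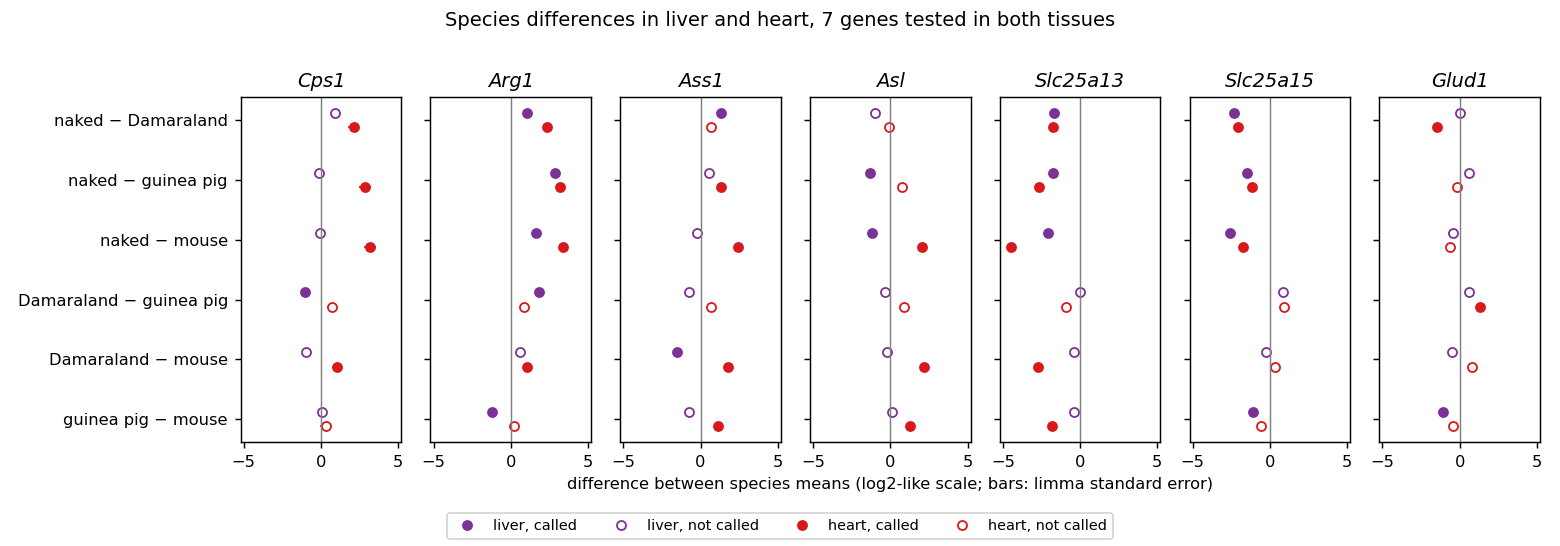
Fitted differences between species means on the log2-like scale (horizontal axes, with limma standard errors as bars) for the 6 pairs of species (vertical axis) in liver and heart, for the 7 genes tested in both tissues; filled points were called. Slc25a13 and Slc25a15 are on the negative side for naked mole-rats in both tissues, while Asl for naked minus mouse and Ass1 for Damaraland minus mouse are negative in liver and positive in heart.

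The close relatives and partners of these genes were looked at next. Glutamine synthetase (Glul), which takes up the ammonia the cycle leaves in hepatocytes around the central vein, averaged 12.63 ± 0.77 in naked mole-rat liver, 13.41 ± 0.51 in Damaraland, 12.81 ± 0.74 in guinea pig and 14.34 ± 0.01 in mouse. Naked minus mouse, at -1.70 (SE 0.45, limma adjusted p = 0.00297), was called. In heart, Glul was 9.93 ± 0.24 in naked mole-rats, against 13.65 ± 0.15, 12.70 ± 0.29 and 12.69 ± 0.26 in Damaraland mole-rats, guinea pigs and mice. Naked mole-rat hearts, at 9.71 to 10.17, lay below all others, with a difference of -3.72 (SE 0.18, adjusted p = 2.82e-11) from the Damaraland mole-rat and -2.77 from each outgroup.

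Arg2, the mitochondrial arginase of tissues outside the liver, was highest in Damaraland heart at 10.08 ± 0.56 (SD, n = 5). It was 7.86 ± 0.11 in guinea pigs, 6.93 ± 0.38 in naked mole-rats and 5.50 ± 0.23 in mice, where hearts had 0 to 4 reads. Damaraland minus guinea pig was 2.22 (SE 0.26, limma adjusted p = 1.36e-06) and naked minus Damaraland -3.15 (SE 0.26, adjusted p = 2.44e-08). In liver Arg2 was highest in guinea pigs, the species with the lowest Arg1, at 7.71 ± 0.19 against 4.66 to 6.21 in the species means of the others. Guinea pig minus mouse for Arg2 in liver was 3.04 (SE 0.21, limma adjusted p = 2.09e-09). Mouse livers had 0.0891 to 0.109 RPM of Arg2, close to 0 reads, so this difference supports no more than a description.

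Slc25a12 (aralar), the aspartate carrier of heart and brain, did not mirror citrin: heart means were 11.81, 12.43, 11.36 and 12.24 in the order naked mole-rat, Damaraland mole-rat, guinea pig and mouse. Naked minus mouse was -0.43 (adjusted p = 0.0309) for Slc25a12 in heart, where Slc25a13 differed by -4.50. Slc25a2, another ornithine carrier, had 0 to 5 reads per liver library and was not tested.

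Oat, which turns ornithine into a precursor of glutamate and proline, averaged 11.13 ± 0.62, 12.44 ± 0.43, 10.31 ± 0.38 and 13.00 ± 0.16 in liver in the same species order. Naked minus Damaraland was -1.31 (SE 0.27, limma adjusted p = 3.13e-04) and Damaraland minus guinea pig 2.13 (SE 0.29, adjusted p = 5.08e-06). Slc7a2, the arginine and ornithine transporter of the hepatocyte membrane, averaged 10.83 ± 0.61 in naked and 11.14 ± 0.30 in Damaraland mole-rats, against 12.66 ± 0.43 in guinea pigs and 13.40 ± 0.38 in mice. It was called lower in all 4 contrasts that pair a mole-rat with an outgroup, with an average contrast of -2.05 (SE 0.22, adjusted p = 2.43e-07).

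Of 93 genes on 6 lists around the pathway, 82 were tested in liver. In the average contrast 7 were called higher and 19 lower, 31.7% against the background of 28.1%, with a median of -0.27. Of 18 ammonia and glutamine genes tested, 3 were higher and 7 lower (median -0.58), and of 16 ornithine, arginine and proline genes 1 was higher and 3 lower (median -0.07). Of 23 genes of amino acid breakdown, 2 were higher and 4 lower (median -0.20). Of 11 periportal genes none was higher and 2 lower (median -0.47), and of 10 pericentral genes 2 were higher and 4 lower (median -0.42). None of 10 regulators of the cycle was called by limma, with differences from -0.81 to 0.75, although 7 had an unadjusted p under 0.05 and 6 an adjusted p under that threshold. The median over all liver genes in this contrast was 0.02.

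Of the 82 genes of these lists tested in liver, 8 were called with one sign in all 4 contrasts, 2 higher and 6 lower. That pattern was shown by 6.29% of all liver genes. The 8 included partners of the cycle that were lower in mole-rats. Car5a, the mitochondrial carbonic anhydrase that supplies CPS1 with bicarbonate, averaged 8.78 ± 0.35 in naked mole-rats, 8.37 ± 0.13 in Damaraland mole-rats, 11.48 ± 0.14 in guinea pigs and 10.47 ± 0.41 in mice (average contrast -2.41, SE 0.14, limma adjusted p = 1.59e-10). Nit2, an amidase of glutamine breakdown, averaged 8.44 in naked and 9.08 in Damaraland mole-rats, against 11.12 in guinea pigs and 11.02 in mice (average contrast -2.30, adjusted p = 9.41e-11).

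Slc1a2, a glutamate transporter of pericentral hepatocytes, had 1 to 19 reads per mole-rat liver library against 3101 to 7356 in the outgroups (average contrast -6.92, limma adjusted p = 5.74e-15). Slc25a18, a mitochondrial glutamate carrier, ran the other way, at 9.50 ± 0.26 in naked mole-rats, 7.40 ± 0.28 in Damaraland mole-rats, 5.10 ± 0.10 in guinea pigs and 4.54 ± 0.35 in mice (average contrast 3.63, adjusted p = 1.74e-12). Slc25a18 passed the filter on low values only through the mole-rats, since its guinea pig and mouse means lay under it. Slc1a2 was likewise high in the outgroups alone. The calls and p-values of these genes therefore support no more than a description. Tbx3, a transcription factor of pericentral hepatocytes, was lower in mole-rats, with an average contrast of -2.04 (adjusted p = 7.19e-09). Cyp2f2, at -8.33, and Cyp1a2, at 1.51, were called too, but belong to cytochrome P450 families in which the split of reads between copies and the matching of genes across species are uncertain. Slc7a2, described above, was the eighth.

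In heart 63 genes of the 6 lists were tested, and 20 were called higher and 7 lower, 42.9% against the background of 23.4%. Among the genes of amino acid breakdown, 9 of 17 were higher and none lower (median 1.14), against 10.8% of all heart genes called higher. They included Hpd (1.51), Tat (1.14) and Mat1a (1.22), enzymes known for high expression in hepatocytes and picked after their values were seen. Each was called higher in naked mole-rat heart than in every other species. Genes high in a single group can pass the filter on low values through it, so this count supports no more than a description. The part of hepatocyte RNA in it was not tested. Ammonia and glutamine genes had 0 higher and 3 lower of 14 (median -0.48), ornithine, arginine and proline genes 3 and 1 of 14 (median 0.32), and regulators 3 and 1 of 8 (median 0.31). Periportal genes had 2 and 1 of 5 (median 0.25) and pericentral genes 3 and 1 of 7 (median 0.87).

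The genes whose liver pattern was most like that of Arg1, the gene with the widest range of species means, were Naglu (Pearson r = 0.982), Actr5 (r = 0.968) and Farp1 (r = 0.968) over the 14 liver libraries. These libraries share 4 species, and the genes were picked as the highest of all genes tested, so the values are a description. Naglu, a lysosomal enzyme gene, averaged 9.99 in naked mole-rats, 9.51 in Damaraland mole-rats, 8.37 in guinea pigs and 9.20 in mice.

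Together the 9 genes took 1.16% to 1.57% of reads in naked mole-rat liver, 0.981% to 1.08% in Damaraland liver, 1.13% to 1.34% in guinea pig liver and 1.42% to 2.05% in mouse liver. Damaraland livers lay below all others. In heart the share was 0.0453% to 0.0596% in Damaraland mole-rats, most of it Glud1, and 0.0255% to 0.0415% in the other species.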

How the data were processed

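Heart and liver libraries of 4 species were compared. The deposited values are variance-stabilised and log2-like, with each tissue transformed separately. Per the submitters' processing notes, cutadapt, Salmon (version written 013.1), DESeq2 and GRCm38 were used. The index, annotation and assignment of genes across species are not given in the sources used here. Columns of other series (26) were not used.

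Inverting the transform gave whole reads for all values (tolerance 0.01), which supplied depth, RPM and within-library ratios. These are counts of reads assigned to the shared genes, not independent molecules. Each tissue's deposited values were fitted by species with limma 3.58.1 (R 4.3.3), using a variance trend and Benjamini-Hochberg adjustment. Genes with a mean under the value of 0 reads plus 1 were left out, which kept 10887 genes in liver and 10667 in heart. The fit was tested on simulated data. P-values measure the spread between these animals.

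All 9 genes were named. Further genes were Glul, Oat, Arg2, Slc25a12, Slc25a2, Slc7a2, pathway genes called in all 4 liver contrasts that pair a mole-rat with an outgroup, and the 3 genes most correlated with the gene of widest range. A gene of this rule and a gene of the lists are not reported here. Other genes of the lists that are printed, the heart genes of amino acid breakdown among them, were chosen after their values were seen. The genes and lists were chosen with earlier results of these data known. Marker lists covered hepatocytes, cardiomyocytes, cholangiocytes, Kupffer cells and leukocytes, endothelium, stellate cells and fibroblasts, and erythroid cells. Cholangiocyte markers (4 measured) summed to 8.43 to 194 RPM in liver and 0.81 to 187 in heart. Kupffer cell and leukocyte markers (4) summed to 88.4 to 307 and 16.3 to 68.9. Endothelial markers (5) summed to 240 to 864 and 358 to 1220, and stellate cell and fibroblast markers (5) to 317 to 795 and 1710 to 7980. The 1 erythroid marker measured had 2.4 to 146 and 2.23 to 77.5. Cardiomyocyte markers in liver summed to 42.5 to 263.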

Additional observations from a re-analysis of the deposited data

Results flagged for a closer look

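Arg1 in naked mole-rat liver had 1 library apart from the rest: replicate 1 had 15.14, and the other 3 had 15.76 to 15.87. It was the sole library that stood apart among 27 groups of 4 or 5 libraries examined, where chance gives about 1 in 20. The naked minus guinea pig and naked minus mouse differences of Arg1 were called without it as well.

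In 5 of 54 comparisons of a gene between 2 species, all libraries moved one way in heart and all the other way in liver. The difference between tissues was not tested, and the same held for 9.03% of comparisons of all genes tested in liver, so the count is near that background. Asl in naked mole-rats minus mice was 2.07 in heart and -1.21 in liver, and minus guinea pigs 0.78 and -1.33. Ass1 in Damaraland mole-rats minus mice was 1.79 in heart and -1.53 in liver, and minus guinea pigs 0.68 and -0.78. Otc in naked mole-rats minus mice was 1.12 in heart, where mice had 3 to 14 reads and the gene was under the filter on low values, and -0.69 in liver.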

How the results depend on the processing

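Of 25 differences called in liver over the 6 pairs of species and the average contrast, 14 were called under all of 28 other settings and 11 were lost under at least 1, with 8 called when tested against a difference of 1. In heart, 26 of 30 were called under all of 27 other settings, 4 were lost, and 22 were called against a difference of 1. With no size threshold, the liver average contrast had 8 genes in place of 3, and the set called in all 4 contrasts that pair a mole-rat with an outgroup had 1 gene in liver and 4 in heart in place of 0. Against a difference of 1, liver kept 1 gene in the average contrast and 7 of the 22 calls between pairs of species. That set in heart held 2 genes with log2 RPM and a pseudocount of 1, with the same after leaving out hepatocyte markers and mitochondrial genes, with a pseudocount of 0.1 and with voom. Leaving out each library in turn gave 1 to 3 genes in the liver average contrast, the lowest without mouse liver replicate 2, and 0 to 3 in that heart set. It was 1 without Damaraland heart replicate 1 or 3, and 3 without guinea pig heart replicate 2. For these the cause was not tested, beyond the fewer samples or the other threshold.

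RPM with a pseudocount of 1 moved the median average contrast of all genes from 0.02 to -0.10 in liver and from -0.01 to 0.09 in heart. No called difference changed sign, and the lowest adjusted p of a changed sign was 0.271. Signs changed for liver Cps1 naked minus mouse (0.024 with centring), Cps1 guinea pig minus mouse (-0.278 with quantile normalisation) and Otc naked minus guinea pig (-0.046 with quantile normalisation, -0.057 with either pseudocount, -0.058 with voom). The liver Glud1 average contrast became -0.137 with quantile normalisation, -0.078 with either pseudocount or voom and -0.011 without the markers and mitochondrial genes. Glud1 naked minus Damaraland in liver became -0.190, -0.211 and -0.092 in the same order, and -0.066 with array weights. Array weights gave 0.028 for liver Slc25a13 Damaraland minus guinea pig and 0.029 for heart Glud1 naked minus guinea pig. In heart, Glud1 guinea pig minus mouse became 0.043 with either pseudocount or voom. Asl naked minus Damaraland in heart became 0.111 without the markers and mitochondrial genes.

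Without each library in turn, signs changed in liver for Asl Damaraland minus mouse (-0.544 to 0.116) and guinea pig minus mouse (-0.205 to 0.455), Ass1 naked minus mouse (-0.576 to 0.142), and Cps1 guinea pig minus mouse (-0.063 to 0.182), naked minus guinea pig (-0.192 to 0.014) and naked minus mouse (-0.164 to 0.082). They also changed for Glud1 Damaraland minus mouse (-1.042 to 0.087), naked minus mouse (-1.016 to 0.113), naked minus Damaraland (-0.158 to 0.144) and the average contrast (-0.216 to 0.348), for Slc25a13 Damaraland minus guinea pig (-0.044 to 0.077), and in heart for Arg1 guinea pig minus mouse (-0.032 to 0.347).

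Replicate numbers were shared across species but named different animals. Deviations of same-numbered libraries correlated at -0.232 to 0.15 over 16 pairs in liver and -0.261 to 0.301 over 18 in heart, so the numbers do not pair them. With the number as a replicate block, the counts of calls stayed within 1.5 times. Single calls were lost for liver Otc Damaraland minus mouse (-0.970), Arg1 naked minus Damaraland (0.998) and Gls2 Damaraland minus guinea pig (-0.949), and for heart Cps1 Damaraland minus mouse (0.969). Calls were gained for liver Asl naked minus Damaraland (-1.098), the Slc25a15 average contrast (-1.022) and heart Slc25a15 Damaraland minus guinea pig (1.081). Under the block, liver Asl guinea pig minus mouse became -0.013 and Glud1 naked minus Damaraland -0.009. Depth limits Otc, Gls2 and outgroup Arg1 in heart, which rest on few reads.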
